A study of Mus musculus with 14 samples.

Results

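Leukocyte and matrix integrins were followed as 9 genes, found by their symbols among the 55359 Ensembl genes of the deposited count table of mouse cerebral cortex. Itgam, Itgal, Itgb2 and Itga4 are subunits of leukocyte integrins. Itga5, Itgav, Itgb1, Itgb3 and Itgb5 are subunits of integrins that bind extracellular matrix.

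The cortex came from 14 mouse samples: 5 taken 2 d and 5 taken 7 d after CVST, cerebral venous sinus thrombosis, in which a clot blocks the large veins that carry blood out of the brain, and 4 sham samples. Fresh cortex of both hemispheres was frozen, total RNA was extracted with Trizol and libraries were made with the NEBNext Ultra RNA kit. How the clot was induced, what the sham procedure was, when sham cortex was taken, and the strain, sex and age of the mice are not in the labels. Samples are numbered within each group, and nothing in the labels says outright that each number is a separate mouse, so that p-values measure the spread between these samples, which may be technical.

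Integrins are receptors of 1 alpha and 1 beta chain that sit in the plasma membrane and hold cells to matrix or to other cells. Beta chains shared by leukocytes pair with alpha chains that bind ICAM molecules on endothelium, fragments of complement and fibrinogen, and these pairs let leukocytes stop and crawl on vessel walls. In the brain, microglia also carry the Itgam and Itgb2 pair, which takes part in clearing opsonised material. The alpha v and alpha 5 integrins bind fibronectin, vitronectin and related proteins, and some of them release latent TGF-beta.

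Gene counts summed to between 14.7 and 20.8 M per sample (mean 17.6 M, SD 1.72, n = 14). On the first principal component of log2 CPM (33.1% of the variance), CVST 2 d sample 5 (-26.7) and CVST 7 d sample 2 (-26.9) lay on the side of the sham samples (-48.2 to -27.3), while the other CVST samples lay between 1.48 and 49.1. Values without them are given where they touch a result. Both were picked for lying near sham in these same data. Leaving them out therefore tends to raise differences from sham and the number of genes that pass. The fits without them are a description and no independent support. Genes that mark excitatory neurons of the cortex summed to 3979 to 4725 CPM (counts relative to the TMM-scaled size of the library) at 2 d, 3147 to 4939 CPM at 7 d and 3758 to 4870 CPM in sham. Of these 6 genes, 0 passed edgeR's test at either time.

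Promoter windows were available for 6 of the 9 genes, from RefSeq's annotation of GRCm38.p6, each running from 250 bases before the gene start to 50 bases after it. The windows of Itgam and Itgb5 are shown because, of the 6, these genes had the largest difference from sham at 7 d among leukocyte and among matrix-binding members. Itgam is on the plus strand at chr7:128062390-128062689 and Itgb5 on the plus strand at chr16:33829415-33829714. Capitals mark each match, on either strand, to GAGGAA, the purine box read by the myeloid factor PU.1, and to GGGCGG, the GC box.
Itgam: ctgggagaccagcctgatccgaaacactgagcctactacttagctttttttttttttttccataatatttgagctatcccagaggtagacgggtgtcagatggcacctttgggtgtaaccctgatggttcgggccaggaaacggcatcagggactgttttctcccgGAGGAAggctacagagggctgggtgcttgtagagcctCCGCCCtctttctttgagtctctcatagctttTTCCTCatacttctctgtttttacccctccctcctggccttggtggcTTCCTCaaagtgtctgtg
Itgb5: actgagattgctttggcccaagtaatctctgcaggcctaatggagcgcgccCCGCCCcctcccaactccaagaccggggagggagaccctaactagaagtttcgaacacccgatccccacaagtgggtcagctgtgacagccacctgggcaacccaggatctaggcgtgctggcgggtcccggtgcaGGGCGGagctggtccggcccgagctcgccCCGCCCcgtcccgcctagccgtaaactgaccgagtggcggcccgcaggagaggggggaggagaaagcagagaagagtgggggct
The Itgam window held GAGGAA at 3 places and GGGCGG at 1, while the Itgb5 window held GAGGAA at 0 places and GGGCGG at 3. Of the 4 other windows, GAGGAA was at 2 places in Itgav, at 1 in Itga5, at 1 in Itgb1 and at 0 in Itga4. The AP-1 letters TGANTCA were in 0 of the 6 windows. Of 32851 windows of the same length in the table, 28.3% held GAGGAA, 35.7% GGGCGG and 7.81% TGANTCA, counting both strands, and none of the motifs overlapped another in the Itgam and Itgb5 windows. A match describes these letters only, and their absence says nothing about the factor.

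The first comparison asked how the cortex at 2 d after CVST differed from sham. At 2 d, 8 of the 9 integrin genes had a higher fitted level than sham, but 0 of 9 passed edgeR's quasi-likelihood test after Benjamini-Hochberg adjustment over 16918 genes. Over all genes tested, 3.95% passed, 2.98% as higher and 0.969% as lower. At an unadjusted p under 0.05, 7 of the 9 were higher and 0 lower, beside 2080 higher and 1587 lower of all 16918 genes. DESeq2 called 4 of 9 (9.04% of all genes) and limma voom with sample weights 6 of 9 (15.9%). The median log2 fold change was 0.66 over the 9 genes and -0.01 over all genes tested. The count changed with CVST 2 d sample 5. Without it 4 of 9 genes passed (Itgam, Itgb1, Itgb2 and Itgb3, all higher), while 11.7% of all genes then passed. Without CVST 7 d sample 2 as well, Itga5 and Itgb5 also passed, 6 of 9 genes beside 12.8% of all genes.

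The second comparison asked the same at 7 d. Itgb2, Itgam and Itgb5 were higher at 7 d than in sham, so that 3 of the 9 genes passed, beside 4.44% of all genes tested (3.61% higher, 0.833% lower). At an unadjusted p under 0.05, 6 of the 9 were higher and 0 lower, beside 1981 higher and 1339 lower of all 16918 genes. The median log2 fold change was 1.00 over the 9 genes, 1.49 over the 4 leukocyte and 0.90 over the 5 matrix-binding subunits, against -0.01 over all genes. Both comparisons share the 4 sham samples, and their values are set side by side for that reason alone. When 1 sample was left out, between 0 and 3 of the calls remained: 0 without sham sample 3, 1 (Itgb2) without sham sample 1, 2 or 4 or CVST 7 d sample 4, and 2 (Itgb2 and Itgb5) without CVST 7 d sample 5. The share of all genes that passed also fell in these fits, to 0.693% without sham sample 3. It was 1.92%, 1.05% and 0.862% without sham samples 1, 2 and 4, and 1.66% and 2.41% without CVST 7 d samples 4 and 5. Without CVST 2 d sample 5 and CVST 7 d sample 2, 5 of 9 genes passed (Itgam, Itgb1, Itgb2, Itgb3 and Itgb5), beside 7.88% of all genes.

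**Figure D1:**
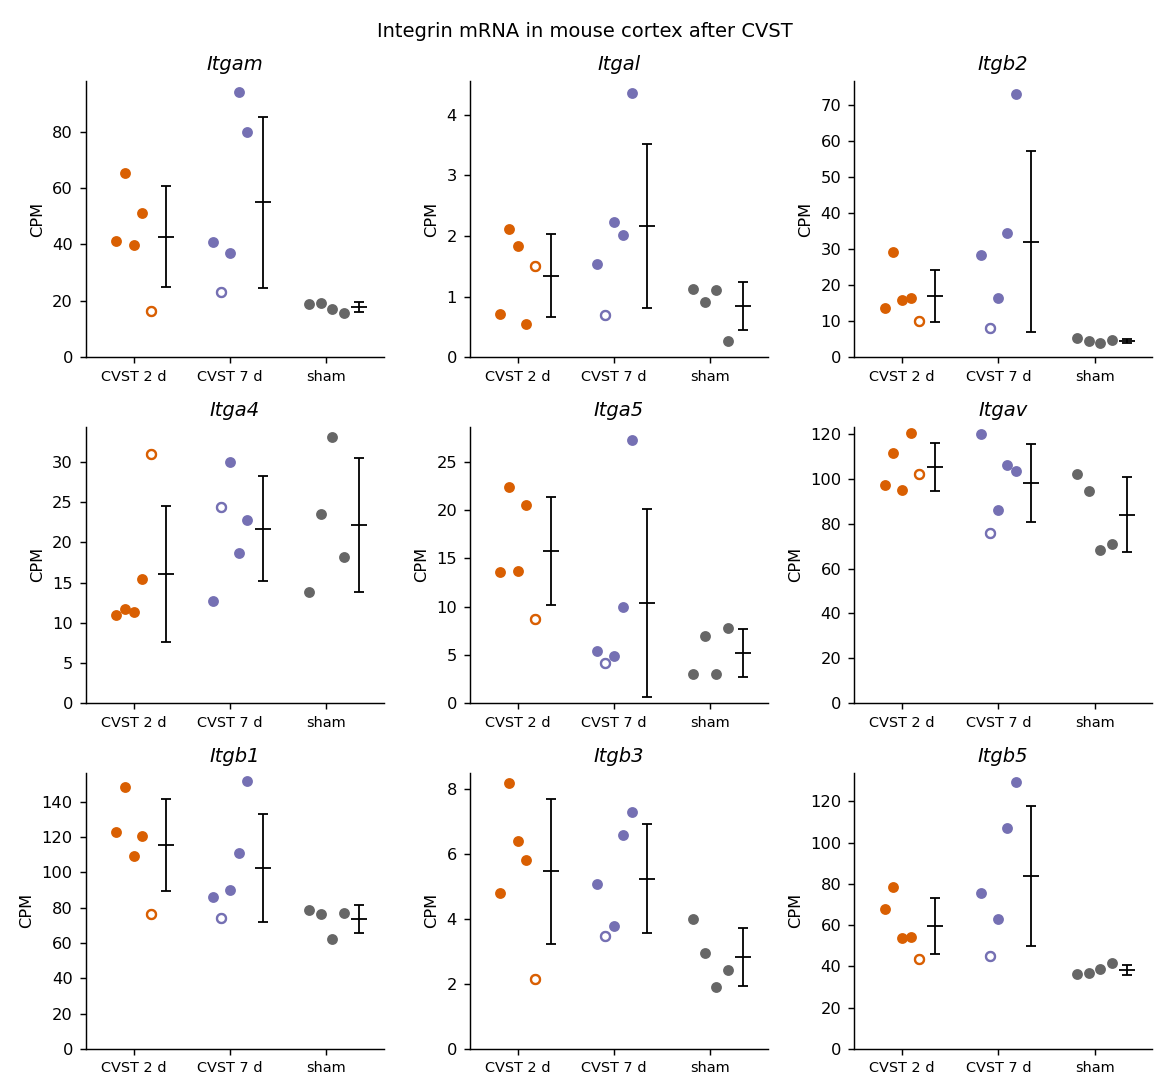
CPM of the 9 integrin genes in every sample at CVST 2 d, CVST 7 d and sham, with mean and SD (n = 5, 5 and 4) beside the points; open circles are CVST 2 d sample 5 and CVST 7 d sample 2. All 5 samples at 7 d lie above all sham samples for Itgb2, Itgam and Itgb5, while the Itga4 values of the groups overlap at both times.

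Among the leukocyte integrins, Itgb2 (ENSMUSG00000000290), the beta chain that all of the classical leukocyte integrins share, showed the largest difference. It stood at 13.7, 29.1, 15.9, 16.5 and 9.90 CPM in CVST 2 d samples 1 to 5. In CVST 7 d samples 1 to 5 it stood at 28.2, 8.11, 16.4, 34.5 and 73.1 CPM, and in sham samples 1 to 4 at 5.23, 4.54, 3.90 and 4.74 CPM. Every CVST sample lay above every sham sample, and the spread at 7 d was wide, with sample 5 the highest and sample 2 the lowest. The log2 fold change against sham was 1.89 ± 0.51 at 2 d (SE, adjusted p = 0.0511, edgeR), just short of the threshold of 0.05, and 2.80 ± 0.52 at 7 d (adjusted p = 0.0117), or 6.97-fold. The 7 d call ended without sham sample 3 (adjusted p = 0.0572). Without CVST 7 d sample 5, the log2 fold change was 2.24.

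Itgam (ENSMUSG00000030786), the alpha chain that joins Itgb2 to form the complement and fibrinogen receptor of microglia and myeloid cells, came next. Its level was 41.3, 65.5, 39.7, 51.0 and 16.4 CPM in CVST 2 d samples 1 to 5. It was 40.7, 23.0, 37.0, 94.0 and 79.9 CPM in CVST 7 d samples 1 to 5, and 18.9, 19.4, 17.0 and 15.6 CPM in sham samples 1 to 4. At 2 d sample 5 lay inside the sham range and the other 4 above it, while at 7 d all 5 lay above it. The log2 fold change was 1.27 ± 0.40 at 2 d (SE, adjusted p = 0.0879, edgeR) and 1.63 ± 0.40 at 7 d (adjusted p = 0.0359), or 3.10-fold. Without CVST 2 d sample 5 the 2 d value was 1.48 (adjusted p = 0.0185). The 7 d call ended without any 1 of the sham samples (adjusted p = 0.074 to 0.111), without CVST 7 d sample 4 (0.0954) and without CVST 7 d sample 5 (0.0816). It also ended with the replicate number as a block (0.141) and with limma on the FPKM (0.0725). Gm49368, annotated on the same strand within the Itgam locus on GRCm38, held 154 counts over the 14 samples, and how shared reads were divided is not in the labels.

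Itgal (ENSMUSG00000030830), the alpha chain of the lymphocyte integrin that binds ICAM molecules, was close to the limit of what these libraries could measure. It had 13, 45, 28, 10 and 26 counts in CVST 2 d samples 1 to 5, 22, 11, 39, 36 and 83 counts in CVST 7 d samples 1 to 5, and 19, 15, 22 and 5 counts in sham samples 1 to 4. The ranges overlapped, and CVST 7 d sample 5 was the highest at 4.35 CPM. The log2 fold change was 0.66 ± 0.54 at 2 d (SE, adjusted p = 0.513, edgeR) and 1.35 ± 0.54 at 7 d (adjusted p = 0.172), or 0.93 at 7 d without CVST 7 d sample 5.

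Itga4 (ENSMUSG00000027009), the alpha chain that binds VCAM and fibronectin on lymphocytes, monocytes and other cells, was the 1 member with a fitted level below sham at 2 d. It stood at 11, 11.8, 11.4, 15.4 and 31.0 CPM in CVST 2 d samples 1 to 5. It stood at 12.7, 24.5, 30.1, 18.6 and 22.8 CPM in CVST 7 d samples 1 to 5, and at 13.9, 23.5, 33.1 and 18.2 CPM in sham samples 1 to 4. At 2 d, samples 1 to 3 lay below the sham range and samples 4 and 5 inside it. Against sham the log2 fold change was -0.46 ± 0.33 at 2 d (SE, adjusted p = 0.446, edgeR) and -0.03 ± 0.33 at 7 d (adjusted p = 0.974). Without CVST 2 d sample 5 the 2 d value was -0.84 ± 0.27 (adjusted p = 0.0606), and that of 7 d against 2 d was 0.81 ± 0.26 (adjusted p = 0.0702), where with it the value was 0.43 ± 0.32 (0.451). On GRCm38 Itga4 overlaps Cerkl, a gene on the other strand with 918 counts over the 14 samples. Since the counting is not stated to use strand, reads of the overlap cannot be told apart.

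Among the matrix-binding integrins, Itgb5 (ENSMUSG00000022817), a beta chain that pairs with Itgav to bind vitronectin, was the member that passed. It stood at 67.7, 78.7, 53.9, 54.4 and 43.6 CPM in CVST 2 d samples 1 to 5. It stood at 75.4, 45.2, 62.9, 107 and 129 CPM in CVST 7 d samples 1 to 5, and at 36.1, 36.5, 38.5 and 41.8 CPM in sham samples 1 to 4. All CVST samples lay above all sham samples at both times, with 2 d sample 5 and 7 d sample 2 nearest to sham. The log2 fold change was 0.64 ± 0.25 at 2 d (SE, adjusted p = 0.154, edgeR) and 1.14 ± 0.25 at 7 d (adjusted p = 0.0232), or 2.20-fold. The 7 d call ended without any 1 of the sham samples (adjusted p = 0.0604 to 0.0811) and without CVST 7 d sample 4 (0.0626).

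Itga5 (ENSMUSG00000000555), the alpha chain of the main fibronectin receptor, had its higher levels at 2 d. It stood at 13.6, 22.4, 13.7, 20.5 and 8.74 CPM in CVST 2 d samples 1 to 5. It stood at 5.44, 4.18, 4.87, 9.99 and 27.3 CPM in CVST 7 d samples 1 to 5, and at 3.06, 6.96, 3.05 and 7.76 CPM in sham samples 1 to 4. All 5 samples at 2 d lay above sham, whereas at 7 d samples 1 to 3 lay inside the sham range. The log2 fold change was 1.60 ± 0.54 at 2 d (SE, adjusted p = 0.104, edgeR) and 1.00 ± 0.53 at 7 d (adjusted p = 0.322). The 7 d value rested on CVST 7 d sample 5, and was 0.24 without it.

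Itgb1 (ENSMUSG00000025809), the beta chain shared by most matrix receptors, stood at 123, 148, 109, 121 and 76.2 CPM in CVST 2 d samples 1 to 5. It stood at 85.8, 73.9, 89.9, 111 and 152 CPM in CVST 7 d samples 1 to 5, and at 78.9, 76.2, 62.0 and 76.8 CPM in sham samples 1 to 4. The stand-apart samples, 2 d sample 5 and 7 d sample 2, lay inside the sham range and all other CVST samples above it. Against sham the log2 fold change was 0.65 ± 0.20 at 2 d (SE, adjusted p = 0.085, edgeR) and 0.48 ± 0.20 at 7 d (adjusted p = 0.2). Without CVST 2 d sample 5 the 2 d value was 0.78 ± 0.19 (adjusted p = 0.0197).

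Itgb3 (ENSMUSG00000020689), the beta chain of the vitronectin receptor and, with Itga2b, of the platelet fibrinogen receptor, stood at 4.82, 8.20, 6.41, 5.83 and 2.14 CPM in CVST 2 d samples 1 to 5. It stood at 5.09, 3.48, 3.78, 6.59 and 7.29 CPM in CVST 7 d samples 1 to 5, and at 4.0, 2.97, 1.90 and 2.42 CPM in sham samples 1 to 4. The ranges overlapped at both times, through sample 5 at 2 d and samples 2 and 3 at 7 d. Against sham the log2 fold change was 0.96 ± 0.35 at 2 d (SE, adjusted p = 0.128, edgeR) and 0.90 ± 0.35 at 7 d (adjusted p = 0.162). Leaving out CVST 2 d sample 5 gave 1.17 ± 0.29 (adjusted p = 0.0202).

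Itgav (ENSMUSG00000027087), the alpha v chain that pairs with Itgb1, Itgb3 or Itgb5, ranged from 95 to 121 CPM at 2 d (median 102), from 75.8 to 120 CPM at 7 d (median 103) and from 68.5 to 102 CPM in sham (median 82.9). The ranges overlapped at both times. Fitted against sham, Itgav had a log2 fold change of 0.32 ± 0.15 at 2 d (SE, adjusted p = 0.211, edgeR) and 0.22 ± 0.15 at 7 d (adjusted p = 0.424).

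Ranges that did not overlap sham were those of Itgb2, Itga5 and Itgb5 at 2 d and of Itgb2, Itgam and Itgb5 at 7 d, 3 of 9 genes at each time. Over all genes tested, 5.65% at 2 d and 5.8% at 7 d had a range wholly above sham.

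**Figure D2:**
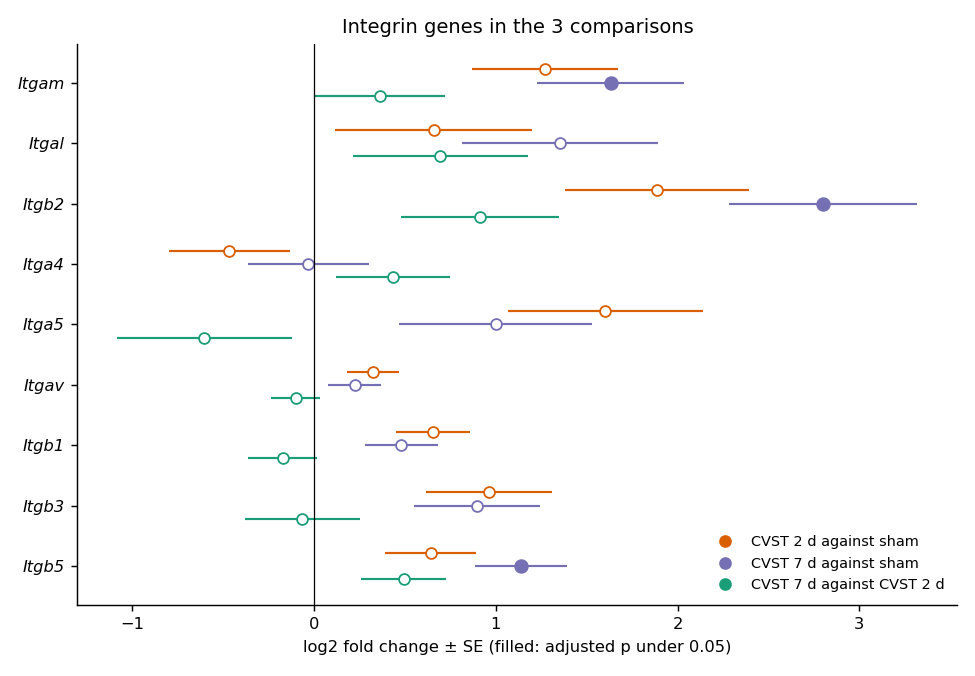
Log2 fold change with SE of the 9 integrin genes at 2 d against sham, at 7 d against sham and at 7 d against 2 d, from the edgeR fit of all 14 samples; filled points passed at an adjusted p under 0.05. The 3 filled points are Itgb2 (2.80), Itgam (1.63) and Itgb5 (1.14) at 7 d.

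The third comparison set 7 d directly against 2 d. By edgeR 0 of the 9 genes passed, while 2.8% of all genes passed (1.54% higher, 1.25% lower). Of the 9, 0 had an unadjusted p under 0.05, beside 1745 higher and 1795 lower of all 16918 genes. DESeq2 called 0 and limma voom with sample weights called 1 (8.28% of all genes), Itga5, as lower at 7 d (log2 fold change -1.39, adjusted p = 0.0313). All 4 leukocyte subunits had a positive log2 fold change, from 0.36 ± 0.36 (SE) for Itgam to 0.91 ± 0.44 for Itgb2 (adjusted p = 0.603 and 0.248, edgeR). Of the 5 matrix-binding subunits 1 had, Itgb5 with 0.49 ± 0.23 (adjusted p = 0.241), and Itga5 had the lowest value, -0.60 ± 0.48 (adjusted p = 0.495). Without CVST 7 d sample 5 the value of Itga5 was -1.36 ± 0.36 (adjusted p = 0.0629). The ranges at 7 d and 2 d overlapped for each of the 9 genes, beside 4.41% of all genes without overlap. The standard errors are wide enough that these values do not show the times to be alike.

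Levels were compared between genes on the deposited FPKM, which are scaled to gene length. The rows of Itga4, Itga5, Itgav, Itgb1 and Itgb3 had been joined to an assembled locus, and what that did to their counts and FPKM, and so to their place in the order and to the ratios they enter, is not known. At 2 d the mean level was highest for Itgb1 at 33.0 FPKM, ahead of Itgb5 at 23.9, Itgav at 15.9, Itgam at 9.85, Itgb2 at 6.45, Itga5 at 4.49, Itga4 at 1.71, Itgb3 at 1.15 and Itgal at 0.342 FPKM, and every neighbour in that order overlapped the next. At 7 d the mean FPKM of Itgb5, 33.6, stood above that of Itgb1, 29.2, with overlapping ranges, and both lay clear of Itgav at 14.7 FPKM. Itgam at 12.7 and Itgb2 at 12.2 FPKM overlapped each other and Itgav. In sham the mean levels were 20.1 FPKM for Itgb1, 13.9 for Itgb5, 12.0 for Itgav, 3.91 for Itgam, 2.26 for Itga4, 1.66 for Itgb2, 1.37 for Itga5, 0.555 for Itgb3 and 0.218 for Itgal. Itgb2 thus had a mean below that of Itga4 in sham, with overlapping ranges, and above it at 2 d and 7 d.

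Because each beta chain can have several alpha partners, the ratio of the subunits was taken within each sample, as log2 of FPKM plus 0.1, for 7 known pairs. For Itgam over Itgb2 this log2 ratio was 0.88, 0.47, 0.57, 0.91 and -0.05 in CVST 2 d samples 1 to 5. It was -0.17, 0.78, 0.48, 0.74 and -0.59 in CVST 7 d samples 1 to 5, and 1.10, 1.34, 1.37 and 0.98 in sham samples 1 to 4. Every CVST sample lay below every sham sample, that is, Itgb2 transcripts stood closer to or above Itgam transcripts after CVST. The mean difference from sham was -0.64 at 2 d and -0.95 at 7 d (exact permutation test, 2-sided, p = 0.0159 at each time, adjusted p = 0.0667 over 21 tests).

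Other pairs reached the same p. The log2 ratio of Itga5 to Itgb1 was -2.91 ± 0.31 at 2 d and -3.89 ± 0.58 in sham (SD, n = 5 and 4), a difference of 0.98 with separate ranges. The log2 ratio of Itgav to Itgb5 was -1.10 ± 0.44 at 7 d and -0.23 ± 0.38 in sham, a difference of -0.87. The log2 ratio of Itgav to Itgb3 was 3.65 ± 0.31 at 7 d and 4.22 ± 0.10 in sham, a difference of -0.57. Each of these 3 differences had an exact permutation p of 0.0159, the smallest that 5 against 4 samples gave with the 2-sided p used here, and an adjusted p of 0.0667. After adjustment 0 of the 21 ratio tests passed. With groups this small, several tests must share the smallest p before any can pass the adjustment. The count therefore does not show the ratios to be alike. For Itgal over Itgb2 the differences from sham were -1.38 at 2 d and -1.48 at 7 d (exact permutation p = 0.0476 each, adjusted p = 0.143), on the low Itgal counts given above.

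**Figure D3:**
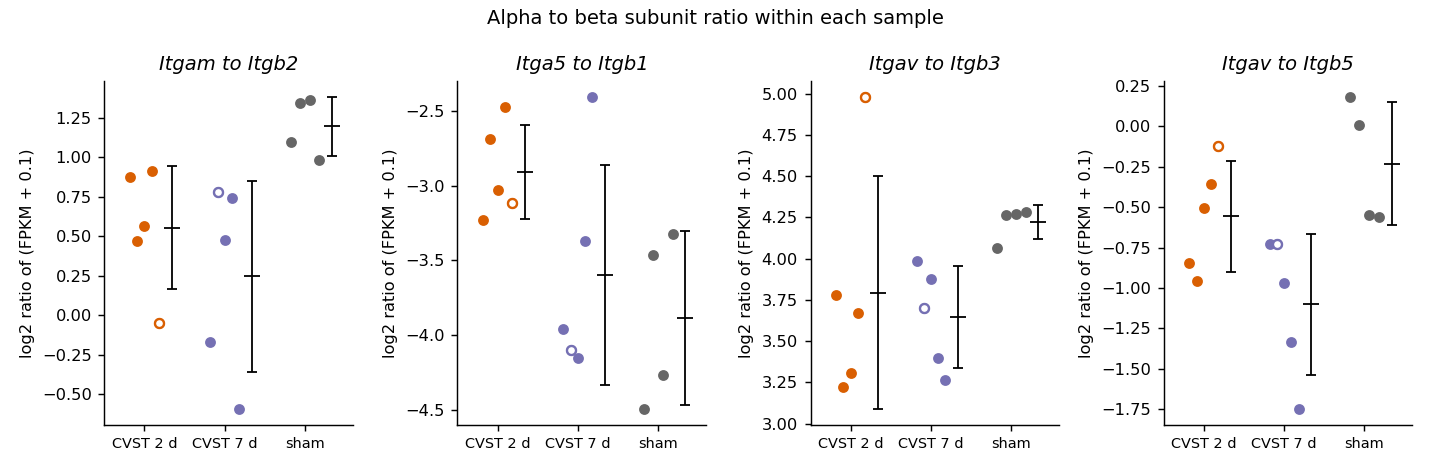
Log2 ratio of alpha to beta subunit FPKM (plus 0.1) in every sample at CVST 2 d, CVST 7 d and sham, with mean and SD (n = 5, 5 and 4); open circles are CVST 2 d sample 5 and CVST 7 d sample 2. The Itgam to Itgb2 ratio lies lower in all 10 CVST samples than in the 4 sham samples, and Itga5 to Itgb1 lies higher at 2 d.

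The members also varied together from sample to sample. Over the 14 samples Pearson's r of log2 CPM was 0.957 between Itgb2 and Itgb5, 0.922 between Itgam and Itgb5 and 0.917 between Itgam and Itgb2, and 0.927, 0.868 and 0.837 for the same pairs after the group means were taken off. Itga5 and Itgb1 had an r of 0.895 (0.852 after group means). Itga4 had a negative r with 7 of the other 8 members, lowest with Itgb3 at -0.657, and an r of 0.094 with Itgal. These values describe samples that share groups and, within a sample, a library.

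By likeness of log2 CPM over the 14 samples, the genes nearest to Itgb2 were Cd68, a lysosomal protein of macrophages (r = 0.990), Fcer1g, a signalling chain of Fc receptors (0.989), and Plek, the myeloid and platelet protein pleckstrin (0.988). Those nearest to Itgam were Ikzf1, the lymphoid and myeloid transcription factor Ikaros (0.974), Galnt4, an enzyme of O-glycosylation (0.973), and Fcrls, a microglial Fc receptor-like gene (0.971). Among those nearest to Itgb5 were Ctsh, a lysosomal protease (0.989), and Tyrobp, a myeloid adaptor (0.981). The nearest genes to Itga5 were P4hb, Tuba1c and Jpt2 (0.932 to 0.939), and to Itgb1 they were Cdca3, Rrbp1 and Tgfb1 (0.962 to 0.968). For Itgb3 they included Tmem37 and Cdk2 (0.955 to 0.962), for Itgav Adam9, Rbpj and Fam78a (0.849 to 0.867), and for Itgal Pth1r, Nxpe4 and Ikbke (0.870 to 0.901). Those of Itga4 were Syt10, a synaptotagmin, Egfem1 and Ranbp17 (0.906 to 0.918).

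Lists of genes that mark cells able to carry integrins were read beside the members. Of all genes, 3.95% passed at 2 d and 4.44% at 7 d, shares that stand beside the counts of every list below. Over the list of 8 genes shared by microglia and macrophages (Aif1, Csf1r, Cd68, Ptprc, Tyrobp, Fcer1g, Laptm5 and Spi1), 2 of 8 passed as higher at 2 d and 8 of 8 at 7 d. Their summed level was 151 to 381 CPM at 2 d, 171 to 722 CPM at 7 d and 125 to 141 CPM in sham, lowest within their groups in CVST 2 d sample 5 and CVST 7 d sample 2. In whole cortex, more cells of a type and more RNA of a gene per cell cannot be told apart. Itgb2 was set against this list within each sample, as its log2 CPM minus the mean log2 CPM of the 8 genes, a measure chosen after its values were seen. That difference was -0.31 ± 0.18 at 2 d, -0.20 ± 0.32 at 7 d and -0.85 ± 0.08 in sham (SD, n = 5, 5 and 4). It was higher by 0.54 at 2 d and by 0.65 at 7 d than in sham (exact permutation p = 0.0159 each, adjusted p = 0.0714 over 9 tests), with every CVST sample above every sham sample. For Itgam the same differences from sham were -0.10 at 2 d and -0.32 at 7 d (exact permutation p = 0.619 and 0.111), and for Itgal they were -0.65 and -0.59 (exact permutation p = 0.27 and 0.238), both below sham where those of Itgb2 were above it. The 8 genes themselves had log2 fold changes against sham from 0.59 (Csf1r) to 1.97 (Cd68) at 2 d. At 7 d these ran from 1.22 (Csf1r) to 2.91 (Cd68). Itgb2, at 1.89 and 2.80, lay within that spread and below Cd68 at both times. The exact permutation p of 0.0159 is the smallest that 5 against 4 samples gave.

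**Figure D4:**
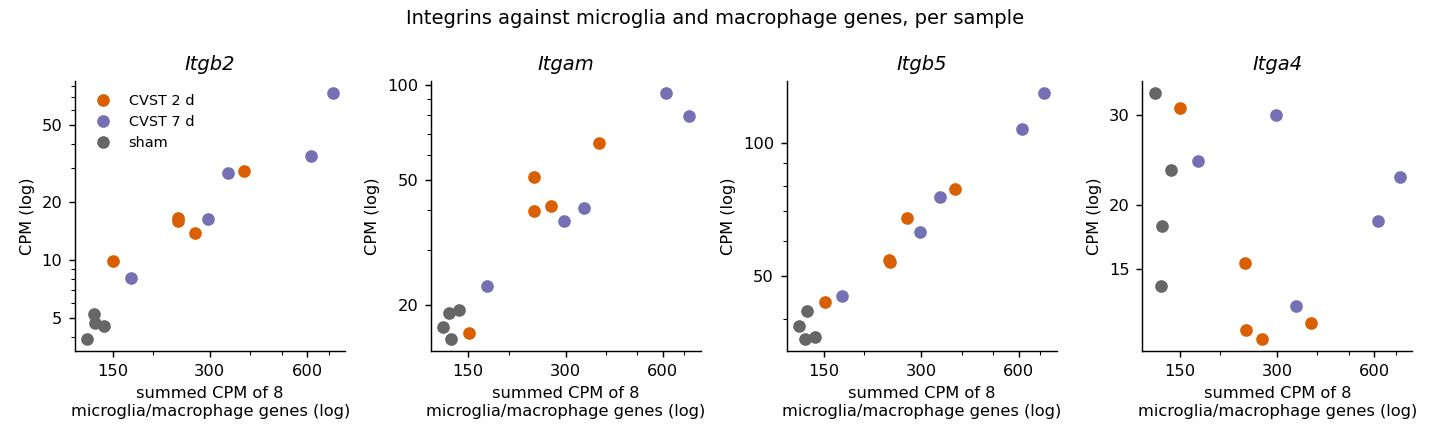
CPM of Itgb2, Itgam, Itgb5 and Itga4 against the summed CPM of 8 genes shared by microglia and macrophages, 1 point per sample at CVST 2 d, CVST 7 d and sham, both axes on a log scale. Itgb2, Itgam and Itgb5 are high in the samples where the 8 genes are high, and Itga4 shows no such order.

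The lists for other carriers of integrins were read in the same way. Homeostatic microglia genes summed to 233 to 673 CPM at 2 d, 348 to 968 CPM at 7 d and 258 to 302 CPM in sham, with 2 of 10 passing as higher at each time. Genes of monocytes and infiltrating macrophages summed to 32.2 to 208 CPM at 2 d, 22.4 to 1877 CPM at 7 d and 13.2 to 16.9 CPM in sham, with 1 of 10 passing at 2 d and 4 of 10 at 7 d. Of the mean sum at 7 d, 605 CPM, Lyz2 alone gave 564 CPM. At 7 d against 2 d, 7 of the 10 genes had a positive log2 fold change and 0 passed. Ccr2 averaged 3.12 CPM at 2 d and 3.16 at 7 d, Arg1 8.16 and 1.13, and Chil3 1.57 and 0.563. CVST 7 d sample 5, the highest of the 7 d samples for Itgb2, Itgal, Itga5, Itgb1, Itgb3 and Itgb5, was also the highest of that list.

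Neutrophil genes summed to 9.67 to 23.4 CPM at 2 d (mean 13.7), 7.48 to 34.4 CPM at 7 d (mean 18.7) and 4.60 to 6.88 CPM in sham (mean 5.74), with all 10 CVST samples above all 4 sham samples. Csf3r made up most of these means, with 9.19 CPM at 2 d, 17.3 at 7 d and 4.46 in sham. Among the others, S100a9 averaged 1.82, 0.151 and 0.559 CPM in the same order, S100a8 1.39, 0.285 and 0.264, and Mmp8 0.248, 0.706 and 0.0135. Of the 9 genes 3 were measurable enough to test, 0 passed at 2 d and 1, Csf3r, passed at 7 d. Their defining genes Ly6g and Camp were at 0 in all samples at 7 d, and had only 1 and 2 counts in all in sham. Lymphocyte genes summed to 7.04 to 18 CPM at 2 d, 8.05 to 25.1 CPM at 7 d and 5.56 to 20.9 CPM in sham, and 0 of the 4 tested of 17 passed. Of the 17, Cd3d, Nkg7, Gzma, Gzmb, Ncr1 and Klrb1c were at 0 in all sham samples. Each of these had at most 3 counts in all at 2 d and at most 11 at 7 d. Of the 4 tested lymphocyte genes, 2 had a positive log2 fold change against sham at 2 d and 1 at 7 d. Platelet genes summed to 4.34 to 13.5 CPM at 2 d, 2.79 to 13 CPM at 7 d and 2.06 to 3.93 CPM in sham, and 0 of the 4 tested of 6 passed. Fibroblast genes summed to 159 to 232 CPM at 2 d, 162 to 2965 CPM at 7 d and 104 to 149 CPM in sham, with CVST 7 d sample 5 the highest, and 0 of 6 passed at 2 d and 3 of 6 at 7 d. Endothelial genes summed to 237 to 386 CPM at 2 d, 207 to 296 CPM at 7 d and 199 to 267 CPM in sham, with 2 of 8 passing at 2 d and 0 at 7 d. Astrocyte genes summed to 3241 to 4090 CPM at 2 d, 3652 to 7085 CPM at 7 d and 2665 to 3508 CPM in sham. Of these, 2 of 6 passed as higher at each time. Mural cell genes summed to 196 to 283 CPM at 2 d, 198 to 319 CPM at 7 d and 180 to 246 CPM in sham. Of these, 0 of 7 passed at either time. The part of these cell types in the integrin values was not tested.

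Of the 17 other integrin subunits in the table, 13 were abundant enough to test, and 1 was higher than sham at 2 d, 2 at 7 d, and 0 lower at either time. Itgax, the alpha chain that joins Itgb2 in dendritic cells and activated microglia, averaged 11.3 CPM at 7 d and 0.154 CPM in sham, where 11 counts were found in all, with a log2 fold change of 6.15 and an SE of 1.05 (adjusted p = 0.00918, edgeR). At 7 d the samples ran from 1.33 to 33.6 CPM, sample 5 the highest, and without it the mean was 5.72 CPM and the log2 fold change 5.15 ± 0.82 (adjusted p = 0.011). The call held in each of the 9 fits that left out 1 sample. It was also higher at 7 d than at 2 d, where it averaged 1.41 CPM (2.98 ± 0.73, adjusted p = 0.0437), a call that ended in 6 of 10 fits that left out 1 sample (any 1 of CVST 7 d samples 1, 4 and 5 or of CVST 2 d samples 1, 3 and 4; highest adjusted p = 0.122), with 1.99 ± 0.59 without CVST 7 d sample 5 (0.0853). Itga2, a collagen receptor chain, averaged 0.637 CPM at 2 d, 0.636 at 7 d and 0.052 in sham, on 60, 56 and 4 counts in all. Its log2 fold changes of 3.4 ± 0.74 at 2 d and 3.39 ± 0.75 at 7 d passed (adjusted p = 0.0268 and 0.0225), and both calls ended without any 1 of the sham samples, and also without CVST 2 d sample 2 or 4 at 2 d and without CVST 7 d sample 4 at 7 d (adjusted p up to 0.0924 and 0.0699).

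The remaining subunits did not pass. Itga2b, the platelet alpha chain, had a log2 fold change of 1.23 ± 0.33 at 2 d (SE, adjusted p = 0.053, edgeR), Itga6, a laminin receptor chain, 0.80 ± 0.24 (0.0718), and Itga7, another laminin receptor chain, 0.94 ± 0.30 (0.0911). Itgb8, a partner of Itgav abundant in astrocytes, had -0.25 ± 0.14 at 2 d and 0.12 ± 0.14 at 7 d. The median log2 fold change over the 13 was 0.06 at 2 d and 0.39 at 7 d. Leaving out CVST 2 d sample 5 and CVST 7 d sample 2, 5 of the list were higher at 2 d and 2 at 7 d. Of all genes, 8.17% were then higher at 2 d and 6.79% at 7 d.

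Ligands that leukocyte integrins bind were tested for 12 of 15 genes, with 1 higher at 2 d (C3), 2 higher at 7 d and 0 lower. C3, the complement protein whose fragment Itgam binds, averaged 10.3 CPM at 7 d and 0.36 CPM in sham (log2 fold change 4.82 ± 0.81, SE, adjusted p = 0.00918, edgeR), a call that held in each of 9 fits that left out 1 sample, with 4.20 ± 0.72 without CVST 7 d sample 4. At 2 d it averaged 3.18 CPM (3.12 ± 0.80, adjusted p = 0.0447), and this call ended in 8 of 9 such fits, all but the one without CVST 2 d sample 5 (up to 0.139). Icam1, the endothelial and microglial ligand of Itgal and Itgam, averaged 8.27 CPM at 7 d and 2.70 CPM in sham (1.62 ± 0.43, adjusted p = 0.0481), a call that ended in 7 of 9 such fits (without any 1 of the sham samples or CVST 7 d samples 3, 4 or 5, highest adjusted p = 0.156). Vcam1, the endothelial ligand of Itga4, averaged 32.4 CPM at 2 d, 35.2 at 7 d and 29.6 in sham, and did not pass. Median log2 fold changes over the genes tested were 0.35 at 2 d and 0.19 at 7 d. Between the times, Jam2, a junctional molecule, was higher at 7 d than at 2 d (0.43 ± 0.09, adjusted p = 0.0194), a call that ended without CVST 2 d sample 3 (0.051). In the fit that left out CVST 2 d sample 5 and CVST 7 d sample 2, 3 genes of the list were higher at 2 d and 5 at 7 d. That fit called 8.17% of all genes higher at 2 d and 6.79% at 7 d.

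Matrix and soluble ligands were all tested, 26 of 26, with 2 higher and 1 lower at 2 d and 7 higher and 1 lower at 7 d. Mfge8, the secreted bridge between dying cells and the alpha v integrins, averaged 83.4 CPM at 2 d, 100 CPM at 7 d and 152 CPM in sham. It fell by 0.86 ± 0.16 at 2 d and by 0.60 ± 0.16 at 7 d on the log2 scale (SE, adjusted p = 0.0137 and 0.0468, edgeR). The 2 d call ended without sham sample 3 or 4 (adjusted p up to 0.0585), and the 7 d call ended in each of 9 fits that left out 1 sample (0.0559 to 0.14). Ccn1, a secreted ligand of Itgav pairs, averaged 16.5 CPM at 2 d, 5.93 at 7 d and 4.15 in sham, higher at 2 d than in sham (1.99 ± 0.38, adjusted p = 0.0155) unless sham sample 2, 3 or 4 was left out (up to 0.064). Vwf, von Willebrand factor of endothelium and platelets, averaged 62.1 CPM at 2 d, 29.8 at 7 d and 22.0 in sham and was higher at 2 d than in sham (1.5 ± 0.28, adjusted p = 0.0148), unless sham sample 2 or 3 was left out (up to 0.064). Both Ccn1 and Vwf were lower at 7 d than at 2 d (-1.47 ± 0.35 and -1.06 ± 0.26, adjusted p = 0.038 and 0.0417), calls that remained in 3 and 2 of 10 fits that left out 1 sample.

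At 7 d, Lama2, a laminin chain, averaged 19.1 CPM, against 10.8 CPM at 2 d and 12.5 CPM in sham. It was higher than sham (0.61 ± 0.11, SE, adjusted p = 0.0117, edgeR), except where sham sample 3 was left out (0.0572), and higher than at 2 d (0.82 ± 0.11, adjusted p = 0.00314) in each of 10 fits that left out 1 sample. Spp1, the secreted ligand osteopontin, had a log2 fold change of 6.83 ± 1.51 at 7 d (adjusted p = 0.0231), with samples from 9.31 to 4108 CPM at 7 d and from 6.65 to 14.2 CPM in sham. Col1a1 and Col3a1, fibrillar collagens, had 4.47 ± 1.07 and 4.73 ± 1.163 (adjusted p = 0.0309 and 0.0345). All 3 values moved with CVST 7 d sample 5, which had 4108 CPM of Spp1, 879 CPM of Col1a1 and 906 CPM of Col3a1, while the other 4 samples at 7 d averaged 310 ± 345, 40.9 ± 23.0 and 44.0 ± 39.7 CPM (SD). Without it the log2 fold changes were 5.04 ± 1.15, 2.12 ± 0.39 and 2.43 ± 0.59 (SE), and they passed (adjusted p = 0.0382, 0.0191 and 0.048, edgeR). The 3 calls ended without any 1 of the sham samples (adjusted p up to 0.0865, 0.106 and 0.117). Fn1, fibronectin, had 1.15 at 2 d and 1.72 at 7 d and did not pass (0.201 and 0.0747). The median log2 fold changes over the 26 were 0.69 at 2 d and 0.77 at 7 d. With CVST 2 d sample 5 and CVST 7 d sample 2 left out, 5 were higher and 1 lower at 2 d, and 10 higher and 1 lower at 7 d. Over all genes these shares were 8.17% higher and 4.61% lower at 2 d, and 6.79% higher and 1.09% lower at 7 d.

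**Figure D5:**
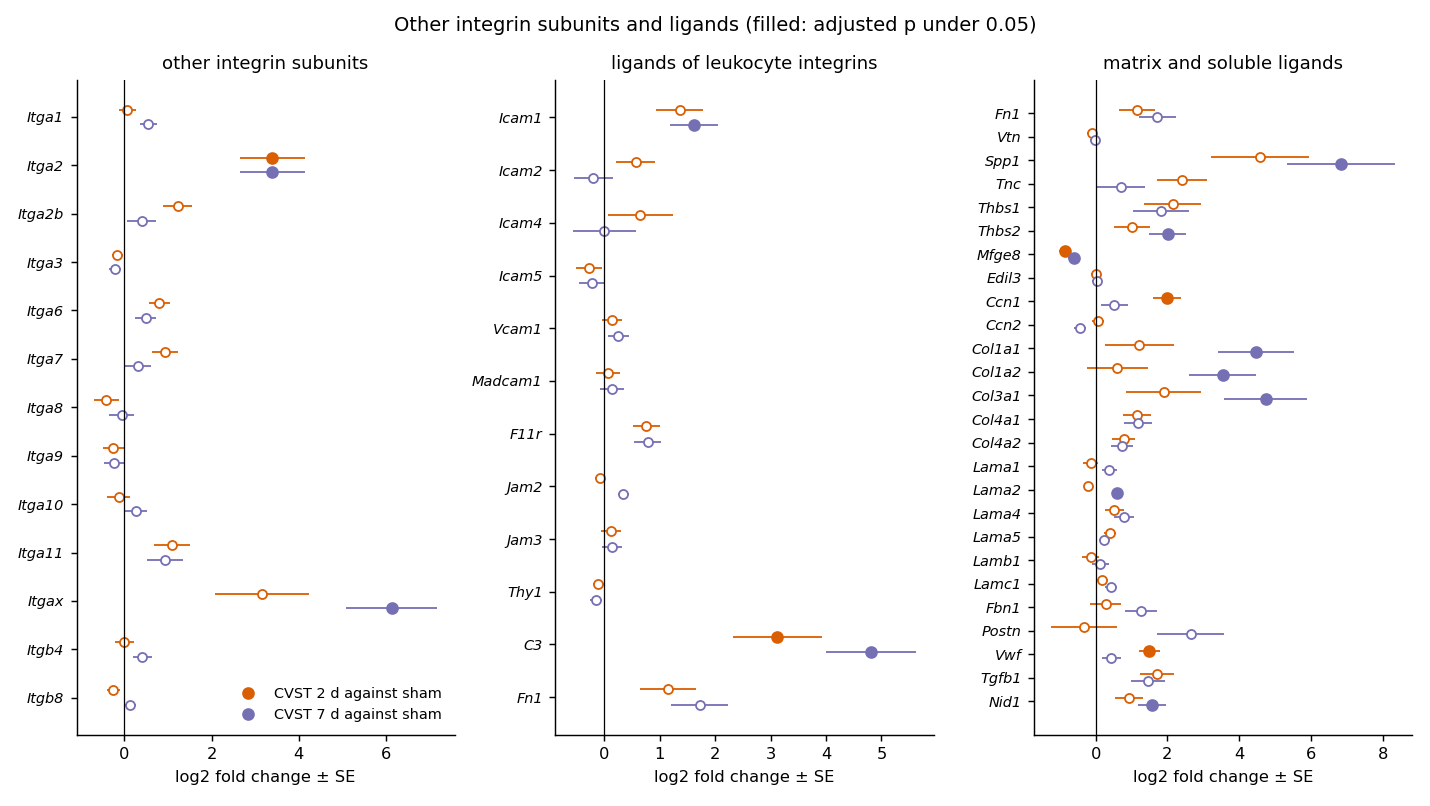
Log2 fold change with SE of other integrin subunits (13 tested), ligands of leukocyte integrins (12) and matrix and soluble ligands (26), for CVST 2 d and CVST 7 d against the 4 sham samples they share; filled points passed at an adjusted p under 0.05. Itgax, C3 and Spp1 lie farthest to the right at 7 d, and Mfge8 is the 1 filled point below 0 at both times.

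Of 29 genes that activate integrins or build adhesions, 2 were higher at 2 d, 3 at 7 d and 0 lower. Vav1, an exchange factor of blood and microglial cells that acts below integrins, averaged 9.58 CPM at 2 d, 10.4 at 7 d and 2.79 in sham, and was higher at 2 d (1.78 ± 0.40, SE, adjusted p = 0.0296, edgeR) and at 7 d (1.91 ± 0.40, adjusted p = 0.0188). Zyx, an adhesion protein of many cell types, was higher at 2 d (0.51 ± 0.13, adjusted p = 0.0396). Apbb1ip, which recruits talin to integrins, and Syk, a kinase below Itgb2, were higher at 7 d (1.55 ± 0.37 and 1.53 ± 0.37, adjusted p = 0.0315 and 0.0321). Fermt3, the kindlin of blood cells, had 1.54 at 2 d and 1.63 at 7 d and did not pass (0.0622 and 0.0508). Each of these 5 calls ended in some of the fits that left out 1 sample. The calls of Vav1 and Zyx at 2 d ended in 8 of 9 fits that left out 1 sample (all but CVST 2 d sample 5, up to 0.104 and 0.137). That of Vav1 at 7 d ended without sham sample 2, 3 or 4 or CVST 7 d sample 4 (up to 0.0771), those of Apbb1ip and Syk without any 1 of the sham samples or CVST 7 d sample 4 or 5, and that of Syk also without CVST 7 d sample 1 (up to 0.102 and 0.105). Median log2 fold changes over the genes tested were 0.19 at 2 d and 0.15 at 7 d. In the fit that left out CVST 2 d sample 5 and CVST 7 d sample 2, 11 were higher at 2 d and 6 at 7 d. That fit called 8.17% of all genes higher at 2 d and 6.79% at 7 d.

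Of 16 genes of leukocyte rolling and chemoattraction, the step before integrin arrest, 12 were tested, with 5 higher and 1 lower at 2 d and 2 higher and 0 lower at 7 d. Selp, the P-selectin of activated endothelium and platelets, averaged 2.6 CPM at 2 d, 0.149 at 7 d and 0.129 in sham. It was higher at 2 d than in sham (4.30 ± 0.88, SE, adjusted p = 0.0193, edgeR), a call lost without sham sample 2, 3 or 4 (up to 0.0747), and lower at 7 d than at 2 d (-4.04 ± 0.79, adjusted p = 0.0177) in each of 10 fits that left out 1 sample. Without CVST 2 d sample 2, the highest at 7.17 CPM, these values were 3.46 ± 0.74 and -3.20 ± 0.67, and without sham sample 1 the first was 5.42 ± 1.06. Pecam1, an endothelial and leukocyte molecule of transmigration, averaged 46.3 CPM at 2 d and 22.9 CPM in sham (1.02 ± 0.20, adjusted p = 0.0179), a call lost without sham sample 2, 3 or 4 (up to 0.0747). Cd44, a hyaluronan receptor, averaged 61.9 CPM at 2 d and 4.39 CPM in sham (3.80 ± 0.66, adjusted p = 0.0113), a call lost without sham sample 2 (0.052). Cxcl1, a neutrophil chemokine, averaged 2.11 CPM at 2 d, 0.154 at 7 d and 0.0715 in sham, on 202, 13 and 5 counts in all. It was higher at 2 d than in sham (4.79 ± 0.74, adjusted p = 0.00698) and lower at 7 d than at 2 d (-3.73 ± 0.61, adjusted p = 0.00998), in each fit that left out 1 sample. Without CVST 2 d sample 2, the highest at 5.25 CPM, these values were 4.11 ± 0.59 and -3.05 ± 0.49. The lower gene at 2 d was S1pr1, a receptor of lymphocyte egress also found on astrocytes and endothelium (-0.45 ± 0.12, adjusted p = 0.0477), a call kept in 2 of 9 such fits. Between the times, 1 gene of the list was higher at 7 d than at 2 d, S1pr1 (0.45 ± 0.11, adjusted p = 0.0471, edgeR). The 3 lower genes were Selp, Cxcl1 and Pecam1, with -0.78 ± 0.19 for Pecam1 (adjusted p = 0.0429, edgeR). The S1pr1 and Pecam1 calls were each kept in 3 of 10 fits that left out 1 sample. At 7 d Cxcr4 and Cx3cr1, chemokine receptors of leukocytes and microglia, passed as higher (1.58 ± 0.40 and 1.12 ± 0.30, adjusted p = 0.0378 and 0.0477). Both of these calls ended without any 1 of the sham samples or CVST 7 d sample 4 or 5, and that of Cx3cr1 also without CVST 7 d sample 1 or 3 (up to 0.128 and 0.139). Median log2 fold changes over the genes tested were 0.93 at 2 d and 0.75 at 7 d. With CVST 2 d sample 5 and CVST 7 d sample 2 left out, 6 were higher and 1 lower at 2 d, and 5 higher at 7 d. Over all genes these shares were 8.17% higher and 4.61% lower at 2 d, and 6.79% higher at 7 d.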

How the data were processed

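Read counts of each gene, not normalized, and FPKM values (fragments scaled to gene length and library size) were deposited by the authors for all 14 samples. Per the submitters' processing notes, fastp, HISAT2 and DESeq2 1.16.1 were used on build mm39. The counting tool, its use of strand and the annotation are not stated in the labels or headers. Of 55894 entries, 535 had no Ensembl gene and were dropped, with 0.203% to 0.278% of each library's counts. Rows of 5 members (Itgb3, Itga5, Itga4, Itgav and Itgb1) had been joined to an assembled locus.

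One edgeR 4.0.16 fit (R 4.3.3) took the counts of the 14 samples with group means, TMM scaling (factors 0.962 to 1.04) and filterByExpr. This left 16918 genes, among them all 9 members. The 2-sided quasi-likelihood test was adjusted by Benjamini-Hochberg over these genes, and passing means an adjusted p under 0.05. Log2 CPM used a prior count of 2. Subunit ratios and values relative to a marker list were compared with 2-sided exact permutation tests (scipy 1.17.1) that double the smaller tail. Alternatives were DESeq2 1.42.0, limma 3.58.1 (voom, and log2 of FPKM plus 0.1), DESeq2 size factors, no filter, fits of only the compared groups, the replicate number as a block, and samples left out, which for the gene lists was added after seeing the data. Of these methods, only the edgeR fit was tested on simulated counts.

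The members and gene lists were chosen with earlier results of these data known. All members are named. Of each list, up to 4 genes with the smallest adjusted p among those called in a comparison are named, and others only for their role, chosen after their values were seen. No counting interval is printed.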

Additional observations from a re-analysis of the deposited data

Results flagged for a closer look

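In 3 of the 27 sets of samples formed by the 9 genes and 3 groups, 1 sample stood far from the rest of its group, where chance alone gives such a gap in about 5% of sets. Itga4 stood at 31.0 CPM in CVST 2 d sample 5, while the other 4 samples at 2 d lay between 11 and 15.4 CPM. Itga5 stood at 27.3 CPM in CVST 7 d sample 5, while the other 4 samples at 7 d lay between 4.18 and 9.99 CPM. Itgb1 stood at 62.0 CPM in sham sample 3, while the other 3 sham samples lay between 76.2 and 78.9 CPM.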

How the results depend on the processing

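Of 468 alternative values of the 9 genes, 412 kept direction and side of the threshold, 29 gained and 16 lost a call, and 11 changed sign, none of them a called value. Members passing at 2 d (0) became 4 with DESeq2, 6 with voom, 1 without the filter, 5 with only the compared groups, 6 without CVST 2 d sample 5 and CVST 7 d sample 2, and 0 to 4 with 1 sample left out. Members passing at 7 d (3) became 0 with the replicate block, 2 (Itgb2 and Itgb5) on FPKM, 5 without both those samples, and 0 to 3 with 1 left out. Between the times (0), voom gave 1, and leaving out 1 sample gave 0 each time. All genes passing at 2 d (669) became 1528 with DESeq2, 2691 with voom, 682 without the filter (2.23%) and 807 with only the compared groups (4.92%). They became 315 with the replicate block, 415 on FPKM, 2146 without both samples and 76 to 1967 with 1 left out. At 7 d (752) they became 1386 with DESeq2, 81 with the block, 413 on FPKM, 1324 without both samples and 119 to 1035 with 1 left out. Between the times (473) they became 1280 with DESeq2, 1400 with voom, 81 with only the compared groups, 91 with the block, 239 on FPKM, 913 without both samples and 173 to 1309 with 1 left out. Itga4 at 7 d against sham (-0.03) changed sign on FPKM (0.0497) and lay between -0.19 and 0.23 with 1 sample left out. Between the times, Itgb3 (-0.06) changed sign on FPKM (0.0239) and lay between -0.27 and 0.13 with 1 sample left out, and Itgam was -0.10 with voom. Of the 21 subunit ratios, 0 passed in any alternative, but leaving samples out raises the smallest p the test can give. Fits that left samples out had smaller groups and fewer samples. The cause of these shifts was not tested.

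The replicate numbers share no stated litter, day or batch. For that reason the numbers were not read as pairs. Same-numbered samples had deviations with r of -0.12 to 0.04 for 2 d and sham, -0.07 to 0.28 for 7 d and sham and -0.44 to 0.10 for 7 d and 2 d. Samples with different numbers were not set beside them, so these values cannot settle whether the numbers mark pairs. With the block, the adjusted p at 7 d was 0.09 for Itgb2, 0.141 for Itgam and 0.118 for Itgb5. Depth limits Itgal (5 to 83 counts per sample) most.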
